A study of Homo sapiens with 6 samples.

Results

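The SLC25 genes encode the mitochondrial carriers, a family of membrane proteins that move metabolites, nucleotides, cofactors and ions across the inner mitochondrial membrane. Members were taken as every probe set whose annotation gives exactly 1 gene symbol made of SLC25A and a number. This gave 117 probe sets of 46 genes, among 18132 named genes on the array.

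The cells were HMEC-1, an immortalised line of human microvascular endothelial cells, kept in serum-free MCDB131 medium. In 3 samples they had been given EPC-Exos at 1e+11 particles per mL for 24 hours, and in 3 samples an equal volume of PBS for the same time. The labels write EPC-Exos, or EPC in the sample titles, without spelling it out, and the name stands in this study for exosomes of human endothelial progenitor cells. RNA was hybridised to Affymetrix 3' IVT arrays, with 1 array per sample and n = 3 arrays per group throughout. All samples come from 1 cell line, and the labels do not say whether replicates were separate cultures, so p-values rest on array-to-array spread alone, possibly of technical origin. RNA carried in by the vesicles and RNA made by the cells cannot be told apart in these arrays, nor can a change in the cells' number from one in RNA per cell. The labels name no batch, so batch and treatment cannot be told apart.

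Most carriers are built from a repeated module of paired transmembrane helices and work as exchangers, swapping a substrate of the matrix for one of the cytosol. They connect the citric acid cycle, oxidative phosphorylation, amino acid breakdown, fatty acid oxidation and one-carbon metabolism with the cytosol. Endothelial cells make much of their ATP by glycolysis, and their mitochondria are known for roles in biosynthesis and signalling.

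Values are log2 signals as deposited, and a change is the log2 signal with EPC-Exos minus that with PBS. A probe set binds its target with its own efficiency, so signals were compared between arrays and not between genes. Each gene was represented by its brightest probe set, and 38 of the 46 members reached the signal filter, a mean log2 signal of 5.45. Median log2 signals of the arrays lay between 6.25 and 6.34, and correlations were 0.997 within groups and 0.988 to 0.989 between groups. Of 10 endothelial markers, 4 lay under the filter, and CDH5, TEK and CLDN5, which define the lineage, lay in both groups under 4.97, the highest mean of the Tag controls that match no human transcript. PECAM1 had mean log2 signals of 5.23 with EPC-Exos and 5.18 with PBS. Of 6 tested endothelial markers ENG (0.81 ± 0.065) and TIE1 (0.48 ± 0.10) rose and 0 fell (21.7% and 27.3% over all tested genes). KDR, VWF, ERG and MCAM were not called. The log2 of the summed signals of all 10 was 10.69 to 10.73 with EPC-Exos and 10.04 to 10.27 with PBS. Such a sum is weighted to the brightest probe set, here ENG, with mean log2 signals of 9.96 with EPC-Exos and 9.16 with PBS. Of 8 mesenchymal markers, all 5 tested ones fell (27.3% lower over all tested genes). DCN reached the filter only through its PBS arrays, with mean log2 signals of 5.40 with EPC-Exos and 7.61 with PBS. The log2 of the summed signals of all 8 was 10.67 to 10.83 with EPC-Exos and 11.92 to 12.06 with PBS. Of 6 blood cell markers measured, PTPRC, CD14 and LYZ were under the highest Tag mean in both groups. Of the 2 tested, CD68 rose (21.7% over all tested genes) and HBB was not called. The log2 of the summed signals of the 6 was 8.88 to 9.01 with EPC-Exos and 8.36 to 8.41 with PBS. CD68 was the brightest of them, with mean log2 signals of 8.47 with EPC-Exos and 7.73 with PBS. The part of these marker shifts in the results below was not tested.

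After EPC-Exos the carriers moved in both directions. SLC25A32, the folate carrier, rose most, and SLC25A1, the citrate carrier, fell most. Of the 38 tested genes, 14 rose, 10 fell and 14 were not called by limma at a Benjamini-Hochberg adjusted p under 0.05. That is 63.2% called, against 49.1% of the 11715 genes tested on the array. The share higher was 36.8% (21.7% over all tested genes) and the share lower 26.3% (27.3% over all tested genes). The median change of the tested carriers was 0.06 on the log2 scale, and that of all tested genes was -0.01. The largest changes were 0.77 and -0.74, the largest fold among the carriers being 1.71. In 28 of the 38 tested carriers, or 73.7%, the arrays of the groups did not overlap, against 55.7% of all tested genes. SLC25A51 and SLC25A52, whose signals cannot be told apart, were counted as separate genes. These counts cover the members bright enough to test, and no inference about the family as a list was drawn from them.

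**Figure D1:**
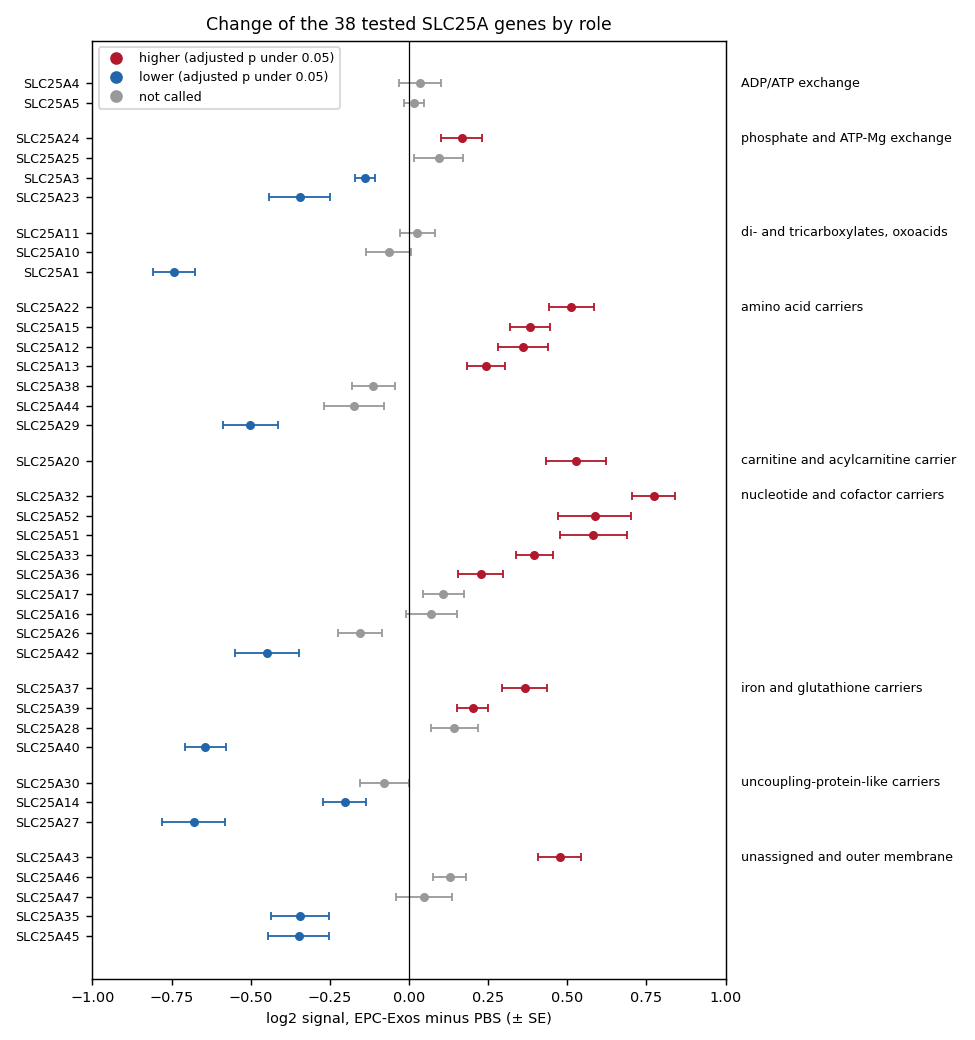
Change in log2 signal, EPC-Exos minus PBS, with limma's standard error, for the 38 tested SLC25A genes, grouped by what they carry. The 14 genes that rose and the 10 that fell are coloured, and changes run from -0.74 for SLC25A1 to 0.77 for SLC25A32.

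Under the series' own threshold, which asks for 1.5-fold and an unadjusted p below 0.05, 5 of the tested carriers passed, or 13.2%, against 9.89% of all tested genes. SLC25A32 and SLC25A52 passed it upward (3.94% of all tested genes), and SLC25A1, SLC25A27 and SLC25A40 downward (5.96% of all tested genes). SLC25A51 lay just outside, at a fold of 1.497, and SLC25A52 just inside, at 1.502.

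The citrate carrier SLC25A1 exports citrate from the matrix, the source of cytosolic acetyl-CoA for fatty acid and sterol synthesis. Its log2 signals were 9.08, 9.23 and 9.0 on the EPC-Exos arrays, against 9.83, 9.83 and 9.88 on the PBS arrays. Every EPC-Exos array lay below every PBS array, and the change was -0.74 ± 0.065 (SE; limma adjusted p = 9.01e-08). Its other tested probe sets fell by 0.91 and 0.86 on the log2 scale, and all 3 are of the _x_at kind, which can bind related transcripts. A further probe set, not of that kind, lay under the filter, with mean log2 signals of 4.11 with EPC-Exos and 4.25 with PBS. SLC25A1 was thus not tested when _x_at and _s_at probe sets were left out. The oxoglutarate carrier SLC25A11, which serves the malate-aspartate shuttle, changed by 0.03 ± 0.055 and was not called (95% interval -0.09 to 0.14). For the dicarboxylate carrier SLC25A10 the change was -0.06 ± 0.071, also not called (95% interval -0.21 to 0.09). The oxodicarboxylate carrier SLC25A21 lay under the filter, with mean log2 signals of 4.10 with EPC-Exos and 4.49 with PBS.

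Among nucleotide and cofactor carriers, 5 of 9 tested members rose and 1 fell (21.7% and 27.3% over all tested genes), with a median change of 0.23. The 5 include both SLC25A51 and SLC25A52, whose signals cannot be told apart. SLC25A32 brings folate into mitochondria, where it feeds one-carbon metabolism. Its log2 signals were 9.33, 9.38 and 9.46 with EPC-Exos, against 8.69, 8.64 and 8.52 with PBS. The groups lay far apart for their spread, with a change of 0.77 ± 0.067 (SE; limma adjusted p = 7.8e-08). Its second probe set rose by 0.56 on the log2 scale.

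SLC25A51 imports NAD+ into mitochondria, and SLC25A52 is a close relative. SLC25A51 had log2 signals of 7.13, 7.29 and 7.42 with EPC-Exos, against 6.63, 6.55 and 6.91 with PBS. For SLC25A52 they were 7.10, 7.24 and 7.36 with EPC-Exos, against 6.50, 6.50 and 6.94 with PBS. The same PBS array, replicate 3, was the highest of its group for both, and neither gene's groups overlapped. The changes were 0.58 ± 0.11 and 0.59 ± 0.12 (SE; limma adjusted p = 0.000221 and 0.000443). Each gene has a single probe set, of the _x_at kind, so the signals of these near-identical genes cannot be told apart, and they are better read as 1 observation than as 2.

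The pyrimidine nucleotide carriers SLC25A33 and SLC25A36 both rose. SLC25A33 had 9.39, 9.40 and 9.42 with EPC-Exos, against 8.99, 9.01 and 9.03 with PBS, a narrow spread in both groups and a change of 0.40 ± 0.058 (SE; limma adjusted p = 2.87e-05). SLC25A36 changed by 0.23 ± 0.071, but its groups overlapped, and the call was lost without EPC-Exos replicate 1 or 3 or PBS replicate 2 (limma adjusted p = 0.0711, 0.0641 and 0.0732), the change being 0.15 without PBS replicate 2. The fall in this group was in SLC25A42, a coenzyme A carrier, with log2 signals of 6.29, 6.62 and 6.33 with EPC-Exos, against 6.79, 6.90 and 6.90 with PBS. EPC-Exos replicate 2 lay nearest to the PBS arrays without reaching them, and the change was -0.45 ± 0.10 (SE; limma adjusted p = 0.00153), against -0.17 and no call for its second tested probe set.

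Not called in this group were SLC25A16 (0.07 ± 0.081), associated with coenzyme A transport, SLC25A17 (0.11 ± 0.065), the peroxisomal member of the family, and SLC25A26 (-0.15 ± 0.069), which imports S-adenosylmethionine. Probe sets disagreed in size for the first and the last of these. The other probe sets of SLC25A16 rose by 0.38 and 0.25, and that of SLC25A26 fell by 0.52 on the log2 scale. Averaged over their probe sets both genes were called, SLC25A16 at 0.23 and SLC25A26 at -0.34 (limma adjusted p = 0.0078 and 0.000524).

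Of the 7 tested amino acid carriers 4 rose and 1 fell (21.7% and 27.3% over all tested genes), with a median change of 0.24. SLC25A22, a glutamate carrier, had log2 signals of 8.57, 8.60 and 8.65 with EPC-Exos, against 8.03, 8.19 and 8.05 with PBS. The groups did not overlap and the change was 0.51 ± 0.072 (SE; limma adjusted p = 1.65e-05). SLC25A15, which exchanges ornithine and citrulline in the urea cycle, had 9.15, 9.24 and 9.17 with EPC-Exos, against 8.75, 8.83 and 8.83 with PBS. All 3 of its probe sets rose, the brightest by 0.38 ± 0.063 (SE; limma adjusted p = 7.93e-05), and all are of the _s_at kind.

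The aspartate-glutamate carriers of the malate-aspartate shuttle rose too. SLC25A12, aralar, changed by 0.36 ± 0.080, with 7.89, 8.03 and 8.12 with EPC-Exos, against 7.61, 7.63 and 7.71 with PBS. SLC25A13, citrin, changed by 0.24 ± 0.061, with 9.04, 9.07 and 9.05 with EPC-Exos, against 8.82, 8.82 and 8.79 with PBS. The limma adjusted p was 0.00127 for SLC25A12 and 0.00315 for SLC25A13, and neither gene's groups overlapped.

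SLC25A29, a carrier of basic amino acids, went the other way. Its log2 signals were 7.24, 7.10 and 7.12 with EPC-Exos, against 7.55, 7.62 and 7.80 with PBS. Both of its probe sets fell, the brighter by 0.50 on the log2 scale (SE 0.087; limma adjusted p = 0.000135). The glycine carrier SLC25A38, needed for haem synthesis, changed by -0.11 ± 0.067, and SLC25A44, a carrier of branched-chain amino acids, by -0.17 ± 0.095, neither called. SLC25A44 was called without PBS replicate 1, at -0.26 (limma adjusted p = 0.0326). The ornithine carrier SLC25A2 and the glutamate carrier SLC25A18 lay under the filter and, in both groups, under the highest Tag mean.

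SLC25A20 exchanges acylcarnitines for carnitine, the step that brings long-chain fatty acids into the matrix for oxidation. Its log2 signals were 7.74, 7.99 and 7.96 with EPC-Exos, against 7.21, 7.35 and 7.54 with PBS. The lowest EPC-Exos array, replicate 1, was above the highest PBS array, replicate 3. The change was 0.53 ± 0.095 (SE; limma adjusted p = 0.000209), and its other probe sets rose by 0.55 and 0.58 on the log2 scale.

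The iron and glutathione carriers divided. SLC25A37, mitoferrin-1, which imports iron for haem and iron-sulphur cluster synthesis, had log2 signals of 9.75, 9.89 and 9.79 with EPC-Exos, against 9.29, 9.48 and 9.56 with PBS. The change was 0.37 ± 0.071 (SE; limma adjusted p = 0.000401) and 2 other probe sets rose with it. Another 2 did not pass, at 0.03 and -0.15, and with the mean of its 5 probe sets the change was 0.19. For mitoferrin-2, SLC25A28, the change was 0.14 ± 0.074 and was not called, though it was with median centring and with quantile normalization (limma adjusted p = 0.0388 and 0.0433).

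SLC25A39 and SLC25A40 are related carriers linked to glutathione import. SLC25A40 had log2 signals of 8.96, 9.01 and 9.0 with EPC-Exos, against 9.72, 9.51 and 9.67 with PBS. It fell by 0.64 on the log2 scale (SE 0.066; limma adjusted p = 4.86e-07), and its second probe set fell by 0.41. SLC25A39 had 10.41, 10.42 and 10.41 with EPC-Exos, against 10.17, 10.22 and 10.25 with PBS, a change of 0.20 ± 0.050 (SE; limma adjusted p = 0.00291). The ratio of SLC25A39 to SLC25A40 within an array differed between the groups by 0.84 ± 0.076 on the log2 scale (SE, n = 3), with no overlap.

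That difference and 6 like it between carriers were chosen after the values were seen, and each was set against an exact two-sided permutation test, whose smallest p for 3 against 3 arrays is 0.1. That p was reached by SLC25A39 with SLC25A40, by SLC25A15 with SLC25A29 (a difference of 0.88 ± 0.087), by SLC25A22 with SLC25A38 (0.63 ± 0.063), by SLC25A24 with SLC25A23 (0.51 ± 0.12) and by SLC25A37 with SLC25A28 (0.22 ± 0.043), with an adjusted p of 0.14 over the 7 pairs. SLC25A12 and SLC25A13 differed by 0.12 ± 0.079 and SLC25A33 and SLC25A36 by 0.17 ± 0.098, with exact permutation p = 0.2 and 0.3 and overlap between the groups. None of these 7 differences passed 0.05, which this number of arrays does not allow.

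**Figure D2:**
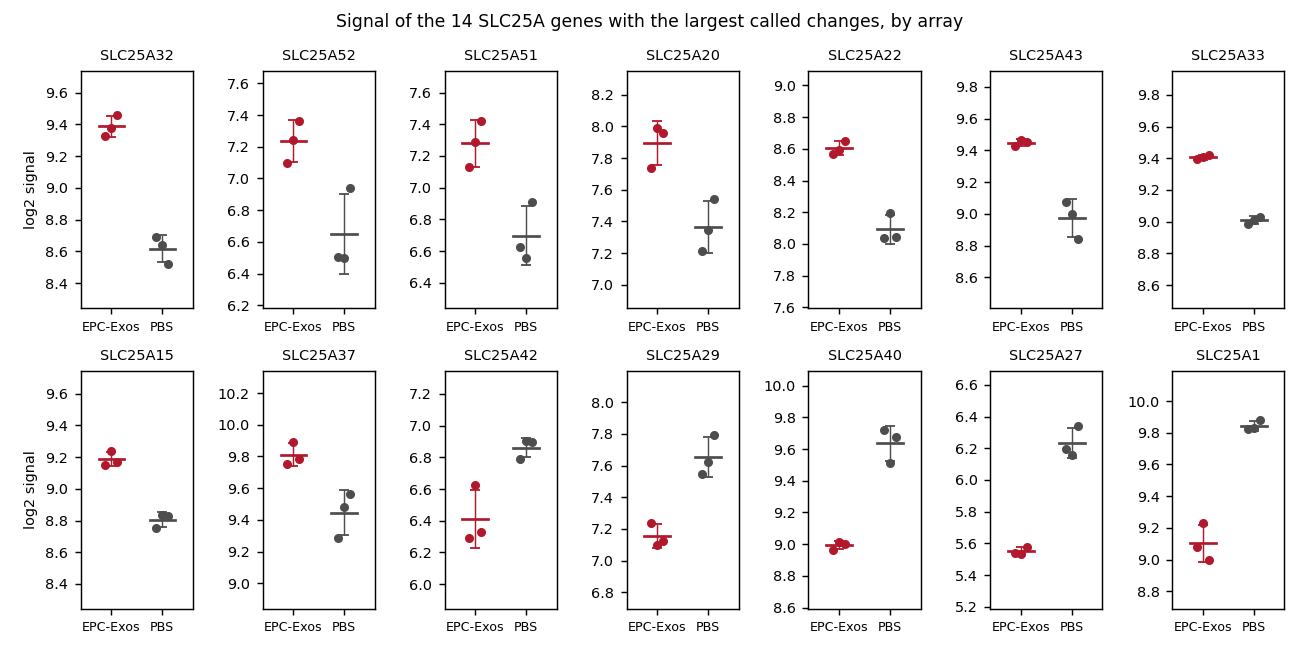
Log2 signal on each array for the 14 called SLC25A genes with the largest changes, with EPC-Exos arrays to the left of PBS arrays in each panel, horizontal bars at the mean and error bars of 1 SD (n = 3). Every panel spans the same height in log2 units, and the groups do not overlap in any of the 14 genes.

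Neither tested ADP/ATP carrier was called. SLC25A5, an ADP/ATP carrier that exports ATP from the matrix, had log2 signals of 12.97, 12.93 and 12.97 with EPC-Exos, against 12.88, 12.96 and 12.98 with PBS. The groups overlapped, and the change was 0.02 ± 0.033 (SE), with a 95% interval of -0.05 to 0.08. Mean log2 signals of SLC25A5, 12.95 with EPC-Exos and 12.94 with PBS, lie near the top of the arrays' range, where the size of a change is uncertain. SLC25A4, the ADP/ATP carrier typical of heart and muscle, had 8.34, 8.41 and 8.37 with EPC-Exos, against 8.35, 8.37 and 8.30 with PBS. Its change was 0.03 ± 0.067 (95% interval -0.11 to 0.18), and the limma adjusted p was 0.728 for SLC25A5 and 0.704 for SLC25A4. SLC25A31, the testis form, had 3.01, 3.27 and 2.89 with EPC-Exos, against 3.20, 2.93 and 3.01 with PBS, all under the highest Tag mean.

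SLC25A3, the phosphate carrier that supplies ATP synthase, fell slightly, by 0.14 on the log2 scale (SE 0.031; limma adjusted p = 0.00116). All 6 of its probe sets were called lower, at -0.17 to -0.13, and in the brightest the limma call did not hold when the trend of variance on signal was dropped (adjusted p = 0.0621). Mean signals of SLC25A3 on the log2 scale, 13.08 with EPC-Exos and 13.22 with PBS, lie near the top of the arrays' range, where the size of a change is uncertain. Of the ATP-Mg/phosphate carriers, which are regulated by calcium, SLC25A23 fell (-0.35 ± 0.097; limma adjusted p = 0.0073) and SLC25A25 changed by 0.09 ± 0.078 without a call. SLC25A24 was called higher (0.17 ± 0.064; limma adjusted p = 0.0401), but its groups overlapped. The call of this brightest probe set of SLC25A24 was lost without EPC-Exos replicate 1 or 2 or PBS replicate 2 or 3 (limma adjusted p = 0.117, 0.142, 0.0786 and 0.196), the change being 0.10 without PBS replicate 3. Its second tested probe set rose by 0.27 on the log2 scale, and there the groups did not overlap. With _x_at and _s_at probe sets left out, that probe set stood for SLC25A24, which was called (limma adjusted p = 0.00488). SLC25A41 lay under the filter, with mean log2 signals of 4.19 with EPC-Exos and 4.08 with PBS.

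Of the 3 carriers that resemble uncoupling proteins, 2 fell (27.3% over all tested genes). SLC25A27, known mainly from neurons, had log2 signals of 5.54, 5.53 and 5.58 with EPC-Exos, against 6.20, 6.16 and 6.34 with PBS. The PBS arrays were all higher, and the gene fell by 0.68 on the log2 scale (SE 0.10; limma adjusted p = 2.91e-05). It is dim, and its other 5 probe sets, all under the filter, were also lower with EPC-Exos, by 0.50 to 0.94 on the log2 scale in their means. The mean signal of each of these 5 with EPC-Exos was under the highest Tag mean, so the size of their differences is uncertain. SLC25A14 fell by 0.20 on the log2 scale (limma adjusted p = 0.0208), a call lost without EPC-Exos replicate 1 or PBS replicate 2 (limma adjusted p = 0.0859 and 0.0546). The kidney-associated SLC25A30 changed by -0.08 ± 0.077 and was not called.

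The remaining members have no settled substrate or sit outside the inner membrane. SLC25A43 had log2 signals of 9.43, 9.47 and 9.45 with EPC-Exos, against 9.08, 9.0 and 8.84 with PBS. Its groups were well apart, the change was 0.48 ± 0.068 (SE; limma adjusted p = 2e-05) and its second probe set rose by 0.49 on the log2 scale. SLC25A35 (-0.34 ± 0.092) and SLC25A45 (-0.35 ± 0.096) fell, with limma adjusted p of 0.00525 and 0.00654. SLC25A46, an outer membrane protein tied to mitochondrial shape, changed by 0.13 ± 0.052 (limma adjusted p = 0.0521), narrowly outside the threshold. SLC25A46 was called without PBS replicate 1 (limma adjusted p = 0.0211), and also with median centring, with the mean of its probe sets and with the replicate number as a block (adjusted p = 0.0296, 0.0289 and 0.0362). SLC25A47, known from liver, changed by 0.05 ± 0.090. SLC25A34, SLC25A48 and SLC25A53 lay under the filter, with mean log2 signals of 5.17, 4.04 and 5.42 with EPC-Exos and of 5.24, 4.19 and 5.24 with PBS.

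The several probe sets of a gene share its transcript and are not replicates, but they show how far a value depends on the probes. Of the 117 probe sets, 82 passed the filter, and in the fit over all 29576 such probe sets 27 rose and 22 fell, against 22.1% higher and 23.6% lower over all of them. Another tested probe set existed for 17 of the 24 called genes, and in 16 of these every other tested probe set moved the same way. The exception was SLC25A37. In 14 of the 17 at least 1 other probe set was called in the same direction, and in SLC25A14, SLC25A36 and SLC25A42 none was. No carrier had probe sets called in both directions.

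**Figure D3:**
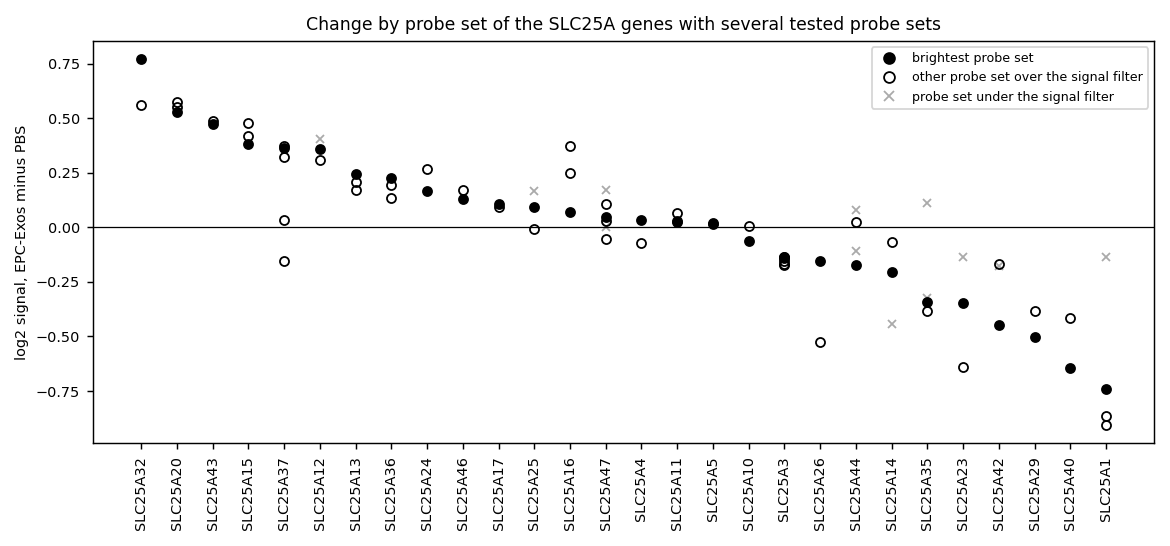
Change in log2 signal, EPC-Exos minus PBS, for every probe set of the 28 SLC25A genes with several tested probe sets, ordered by the change of the brightest one. Filled circles are the brightest probe set of a gene, open circles its other tested probe sets and crosses those under the signal filter. Probe sets of the genes at both ends lie on the same side of 0 as the brightest, and those of SLC25A37 spread from -0.15 to 0.37.

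Promoter windows, from 250 bases before to 50 after a RefSeq transcription start in GRCh38.p14, were found for 39 of the 46 members, some with several starts. They were searched on both strands for 6 motifs, chosen after the values were seen: the sterol regulatory element core TCACNCCAC, the nuclear respiratory factor site of NRF1, an extended CCAAT box, the ETS site CCGGAAGT bound by GABP, the E-box CACGTG bound by MYC and USF factors, and the cyclic AMP element TGACGTCA. Matches to the E-box were in windows of 9 of the 39 members, against 8.77% of all 27305 genes with a window. Of the 12 risen carriers with a window 5 held it (SLC25A13, SLC25A22, SLC25A33, SLC25A36 and SLC25A51), and of the 9 fallen ones 0 did. Motifs were not counted among all risen or all fallen genes of the array, so no split by direction here has a background to be set against. The E-box was also in SLC25A26 (-0.15), SLC25A38 (-0.11) and SLC25A46 (0.13), which were not called, and in SLC25A31, which lay under the filter. SLC25A22 has several listed starts, which gives it more chances of a match, and the E-box lay at 1 of them. The cyclic AMP element was in 3 members, the risen SLC25A33 and SLC25A36 and SLC25A25, which was not called, against 2.25% of all genes. The ETS site was in 4 members (4.95% of all genes), the NRF1 letters in 0 (1.52% of all genes) and the sterol core in 1, SLC25A40 (1.39% of all genes). The extended CCAAT box, which asks for a further fixed letter after CCAAT, was in 2 members, the fallen SLC25A29 and SLC25A42 (10.3% of all genes). The letters CCAAT alone were not searched for. They also stand in the windows printed below for the risen SLC25A33, SLC25A36 and SLC25A13, without the extended match. Such matches describe the letters of a window and show no binding. The windows of 4 risen carriers with an E-box, and of the fallen SLC25A40 with the sterol core, follow 5′ to 3′ on the gene's strand, with the matches in capitals. They lie at chr1:9539215-9539514 on the plus strand for SLC25A33, chr3:140941586-140941885 on the plus strand for SLC25A36, chr7:96322049-96322348 on the minus strand for SLC25A13, chr9:37904078-37904377 on the minus strand for SLC25A51 and chr7:87876311-87876610 on the minus strand for SLC25A40.
SLC25A33: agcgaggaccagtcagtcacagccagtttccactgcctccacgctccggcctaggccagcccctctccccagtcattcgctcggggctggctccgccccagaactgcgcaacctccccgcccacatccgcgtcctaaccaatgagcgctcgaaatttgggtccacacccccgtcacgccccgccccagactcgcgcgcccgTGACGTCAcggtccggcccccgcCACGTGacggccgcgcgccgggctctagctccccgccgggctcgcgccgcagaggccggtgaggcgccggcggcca
SLC25A36: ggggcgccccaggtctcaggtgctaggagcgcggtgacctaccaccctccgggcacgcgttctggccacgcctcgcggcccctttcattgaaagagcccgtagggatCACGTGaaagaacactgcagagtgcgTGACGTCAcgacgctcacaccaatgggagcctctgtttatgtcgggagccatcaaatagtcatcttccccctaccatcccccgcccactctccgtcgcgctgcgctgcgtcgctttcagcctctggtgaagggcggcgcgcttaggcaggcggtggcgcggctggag
SLC25A13: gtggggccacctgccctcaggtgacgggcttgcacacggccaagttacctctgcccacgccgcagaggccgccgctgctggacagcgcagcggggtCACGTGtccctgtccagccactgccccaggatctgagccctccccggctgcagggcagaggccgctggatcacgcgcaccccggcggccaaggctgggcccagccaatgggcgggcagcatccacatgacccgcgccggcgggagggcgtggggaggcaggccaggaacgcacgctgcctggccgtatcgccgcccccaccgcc
SLC25A51: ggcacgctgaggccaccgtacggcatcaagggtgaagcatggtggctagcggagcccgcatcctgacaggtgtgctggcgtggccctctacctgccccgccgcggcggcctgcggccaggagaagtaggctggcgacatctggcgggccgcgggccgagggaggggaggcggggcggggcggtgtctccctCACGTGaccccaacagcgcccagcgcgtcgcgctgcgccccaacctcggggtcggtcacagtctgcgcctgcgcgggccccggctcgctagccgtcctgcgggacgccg
SLC25A40: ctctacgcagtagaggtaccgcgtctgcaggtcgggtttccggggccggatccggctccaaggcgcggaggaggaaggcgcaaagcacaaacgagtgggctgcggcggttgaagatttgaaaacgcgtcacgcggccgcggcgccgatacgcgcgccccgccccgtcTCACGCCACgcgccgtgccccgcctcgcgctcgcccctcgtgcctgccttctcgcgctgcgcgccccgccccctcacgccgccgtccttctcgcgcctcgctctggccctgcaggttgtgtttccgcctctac
In SLC25A33 and SLC25A36 the cyclic AMP element and the E-box stand near each other without overlapping, in opposite order.

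Carriers are made in the cytosol and reach the inner membrane through the translocase of the outer membrane, small TIM chaperones and the TIM22 complex. Of 13 tested genes of this import route, 9 were called higher and 0 lower (21.7% and 27.3% over all tested genes), with a median change of 0.22. Not called were TIMM10B (-0.15 ± 0.067; limma adjusted p = 0.0732), TIMM8B (-0.03 ± 0.044), TOMM70 (0.07 ± 0.054) and AGK (0.11 ± 0.063). TOMM40, the outer membrane pore, had log2 signals of 8.94, 9.08 and 9.08 with EPC-Exos, against 8.23, 8.37 and 8.53 with PBS, a change of 0.65 ± 0.080. Its only probe set is of the _x_at kind, which can bind related transcripts. The chaperone genes TIMM8A (0.60 ± 0.10), TIMM13 (0.49 ± 0.065) and TIMM9 (0.37 ± 0.065) rose as well, with limma adjusted p for the 4 genes between 3.81e-06 and 0.000155. Averaged over its probe sets the change of TIMM13 was 0.20, and with an offset of 64 that of TIMM8A was 0.35.

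Carriers of the family under other symbols gave 1 rise and 1 fall among 3 tested genes (21.7% and 27.3% over all tested genes). UCP2, an uncoupling protein, had 8.37, 8.33 and 8.39 with EPC-Exos, against 9.47, 9.48 and 9.51 with PBS, a change of -1.12 ± 0.061 (SE; limma adjusted p = 2.97e-10). That value comes from a probe set of the _s_at kind, and the other 3 gave -0.82, -0.20 and -0.14. With probe sets of the _x_at and _s_at kinds left out, UCP2 changed by -0.14 and was not called (limma adjusted p = 0.326), and averaged over all 4 it changed by -0.57. MTCH2, an outer membrane insertase, rose by 0.30 on the log2 scale in its brighter probe set and fell by 0.24 in its dimmer one, both called, so its direction is uncertain, and averaged over both it changed by 0.03. UCP1 and UCP3 lay under the filter.

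Of 18 other tested transporters of the mitochondrial membranes, 5 rose and 6 fell (21.7% and 27.3% over all tested genes), with a median change of -0.03. These shares lie near those of all tested genes. SFXN4, a sideroflexin linked to iron-sulphur cluster formation, rose (0.62 ± 0.088). SFXN2, also a sideroflexin (-0.54 ± 0.086), SMDT1, a regulator of the calcium uniporter (-0.42 ± 0.058), and MPC1, of the mitochondrial pyruvate carrier (-0.42 ± 0.080), fell. With an offset of 64 the change of SFXN2 was -0.33. For these 4 transporters the limma adjusted p ran between 1.3e-05 and 0.000317.

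Among 18 tested enzymes that use carried substrates, 9 rose and 4 fell (21.7% and 27.3% over all tested genes), with a median change of 0.05. Beside SLC25A20, CPT1A, the outer membrane carnitine palmitoyltransferase, had log2 signals of 10.19, 10.22 and 10.29 with EPC-Exos, against 9.47, 9.49 and 9.55 with PBS, and rose (0.73 ± 0.055). Its inner membrane partner CPT2 fell (-0.56 ± 0.081), with 6.72, 6.68 and 6.70 with EPC-Exos, against 7.25, 7.27 and 7.26 with PBS. Beside SLC25A32, the folate enzyme MTHFD1L rose (0.46 ± 0.049), and so did SHMT2 (0.35 ± 0.054) and MTHFD2 (0.29 ± 0.052), these last named after their values were seen. Beside SLC25A1, ACLY, which cleaves exported citrate to acetyl-CoA, fell (-0.41 ± 0.037), also named after its values were seen. ARG2, the mitochondrial arginase that yields ornithine, fell (-0.93 ± 0.11), with 5.44, 5.75 and 5.48 with EPC-Exos, against 6.40, 6.49 and 6.57 with PBS. With an offset of 64 added before log2 the changes of the dim ARG2 and CPT2 were -0.47 and -0.37. Across these 7 enzymes limma gave adjusted p from 1.6e-08 (CPT1A) to 0.000199 (MTHFD2).

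Of 10 tested factors of mitochondrial biogenesis, 5 rose and 1 fell (21.7% and 27.3% over all tested genes), with a median change of 0.21. PPRC1, a coactivator of the PGC-1 family, had log2 signals of 8.35, 8.46 and 8.44 with EPC-Exos, against 7.51, 7.59 and 7.77 with PBS, a change of 0.79 ± 0.081. POLRMT, the mitochondrial RNA polymerase (0.56 ± 0.071), the nuclear receptor gene ESRRA (0.52 ± 0.071) and TFB2M, a mitochondrial transcription factor (0.32 ± 0.057), rose too, with limma adjusted p for the 4 genes between 4.89e-07 and 0.000163. TFAM also rose (0.22 ± 0.071). The factor that fell was GABPA (-0.26 ± 0.078; limma adjusted p = 0.0115), and NRF1 (0.13 ± 0.086), TFB1M, PPARGC1B and TFEB were not called. The coactivator gene PPARGC1A lay under the filter, with mean log2 signals of 3.66 with EPC-Exos and 3.83 with PBS.

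**Figure D4:**
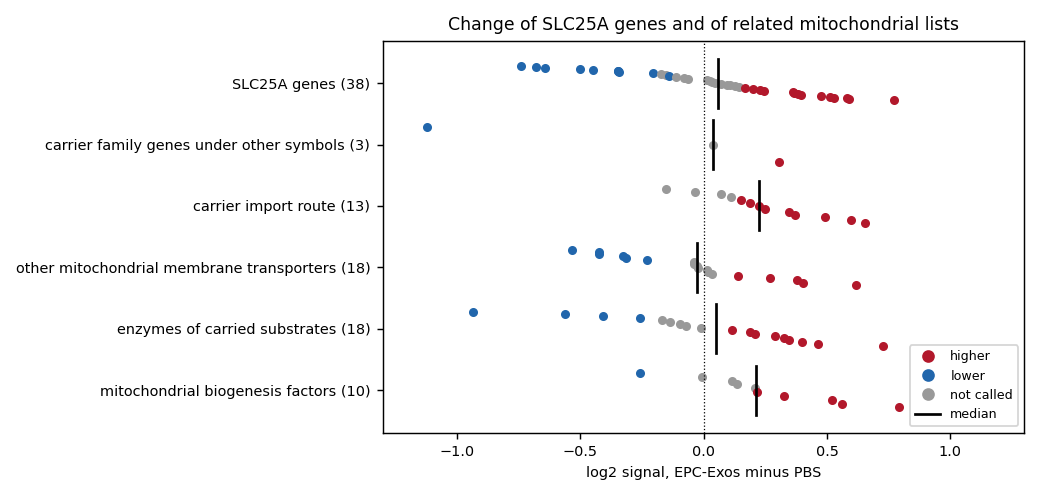
Change in log2 signal, EPC-Exos minus PBS, of each tested gene of the SLC25A family and of 5 related mitochondrial lists, with the number of tested genes in brackets and a vertical bar at each list's median. In the import route 9 of 13 genes lie to the right as called higher and 0 are called lower, while the SLC25A genes spread to both sides of 0.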

How the data were processed

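RNA of 6 HMEC-1 samples was measured on Affymetrix arrays, 1 array each. The deposited series table holds log2 signals of 49395 probe sets, the scale being read from the values. MAS5 is named per the submitters' processing notes, without its role, and other steps are not given in the sources used here. Probe sets were named from GEO's platform annotation: 44988 have 1 gene symbol, 1832 several and 2473 none, and those with several were not named. Groups were taken from the sample titles.

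Values were used as deposited. For each gene the probe set with the highest mean over the 6 arrays was used, after a filter at the 40th percentile of signal. EPC-Exos was set against PBS with limma 3.58.1 in R 4.3.3 (lmFit, eBayes with a variance trend), and p-values were Benjamini-Hochberg adjusted over 11715 genes. The fit was also run on simulated data. Far fewer genes were changed there than were called here, so no support is drawn from that run. Full values were given for the 14 called carriers with the largest absolute change and the ADP/ATP carriers, and for up to 4 called genes of each other list. Genes with a 3' to 5' control gave similar ratios in both groups: for ACTB 0.51 to 0.53 on the log2 scale with EPC-Exos and 0.46 to 0.56 with PBS. The number of arrays limits the precision.

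Members and gene lists were chosen with earlier results of these data known. The 6 motifs, the 7 carrier pairs and the promoters printed were chosen after values were seen. Promoter windows are from RefSeq, GRCh38.p14. Alternatives changed the scaling, an offset, the filter, the gene summary, the probe set kinds, the variance model and the arrays used. Each replicate number occurs in both groups, and deviations of same-numbered arrays were weakly and positively correlated, at 0.20, 0.18 and 0.08. The labels state no pairing, and none was used in the main fit.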

Additional observations from a re-analysis of the deposited data

How the results depend on the processing

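Of 15 alternative settings, none turned the direction of a called carrier. Of the 24 called carriers 20 kept their call in every alternative that tested them, while SLC25A3, SLC25A14, SLC25A24 and SLC25A36 lost it in some, and 5 carriers not called gained one (SLC25A16, SLC25A26, SLC25A28, SLC25A44 and SLC25A46). With the filter at the 60th percentile, which left 30 carriers to test, 5 fell, 3 passed the series' threshold, 13 probe sets fell and the median change was 0.10. Without _x_at and _s_at probe sets, which left 32 carriers, 9 rose, 3 passed the series' threshold and 13 probe sets fell. SLC25A1 was not among these 32. Averaging the probe sets of each gene left 36 carriers, with a median change of 0.092, of 0.19 for SLC25A37 and of -0.26 for SLC25A42, and 3 past that threshold. An offset of 64 left 2 past it, and the changes of dim carriers were then smaller by over 1.5 times, at -0.33 for SLC25A27, -0.27 for SLC25A42, -0.22 for SLC25A35 and SLC25A45, -0.21 for SLC25A23, 0.39 for SLC25A51 and 0.38 for SLC25A52, all still called, as were ARG2 at -0.47, CPT2 at -0.37, SFXN2 at -0.33 and TIMM8A at 0.35. Besides the calls lost to single arrays, limma did not call SLC25A24 with quantile normalization, with median centring or without the variance trend (adjusted p = 0.0748, 0.0626 and 0.124), nor SLC25A36 without the trend (adjusted p = 0.0555). Leaving out 1 array in turn gave 12 to 15 carriers higher, 9 to 11 lower, 4 to 7 past the series' threshold, medians of 0.04 to 0.08, and 23 to 28 probe sets higher and 19 to 24 lower. With the replicate number as a block, 15 carriers rose and 10 fell, SLC25A46 being added. Deviations of same-numbered arrays correlated at 0.20, 0.18 and 0.08, the last too low to take the numbers as pairs, though every array correlated best with its own number, a hint from the data and not the design. Signals near the Tag controls limit what can be said of the 8 carriers under the filter.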
